A study of Sus scrofa with 2 samples.

Results

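The genes described here encode the complement system, a set of plasma proteins, cell surface regulators and receptors of innate immunity. The list has 33 genes, chosen by name, and 30 of them had a row among the 21442 genes of the deposited table, while C1S, CFD and C1QBP had none. Counts come from 1 RNA sequencing library of brain and 1 of liver, both from pigs (Sus scrofa) of the Rongchang breed, a Chinese domestic breed, with no treatment named. Neither the age of the animals nor the brain region is given in the labels, which also leave unsaid how many animals were used and whether the tissues share a donor animal. There were 23796843 counts for brain and 31724498 for liver. As each tissue is 1 library, no test or replicate check was possible, and every interval is a 95% interval for counting error only.

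Complement is started along several routes. In the classical pathway C1q binds its target and activates the proteases C1r and C1s, which cleave C4 and C2, and in the lectin pathway mannose-binding lectin and the ficolins do so through the MASP proteases. Both routes lead to the cleavage of C3, which factor B, factor D and properdin amplify, and C5 to C9 then form the membrane attack complex. Most circulating components are made by hepatocytes, whereas C1q is made mainly by macrophages, among them Kupffer cells of the liver and microglia of the brain. In brain, C1q and C3 are known for marking synapses that microglia remove.

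The tissue labels matched the marker genes. All 4 neuronal, 5 astrocyte and 4 oligodendrocyte markers that passed the level filter were over 4-fold higher in brain (14.6% of all genes tested). All 8 hepatocyte markers were over 4-fold higher in liver (11.3% of all genes tested). Levels are given as CPM, counts per 1000000 after scaling the libraries by the TMM method, so that 1 CPM equals 34.9 counts in brain and 21.6 in liver. The log2 ratio is that of brain over liver CPM after adding a pseudocount of 1 CPM to each. A gene was tested if it reached 1 CPM in at least 1 library, and it was called enriched in brain when its log2 ratio reached 2 and enriched in liver when it reached -2, that is, 4-fold. Folds of single genes are given without the pseudocount. They depend on the scaling, since plain library size makes every fold toward liver 2.16 times smaller, so that C3 would be 155-fold higher in liver rather than 335-fold. Levels per transcript are not compared between genes, because no transcript lengths were used here. Where counts of different genes are set side by side, they are not corrected for length.

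Complement transcripts lay mostly on the liver side, and the difference was wide at the level of the whole list. Together the 30 genes took 1.81% of liver counts (Wilson interval 1.80 to 1.81), with 573832 counts. In brain they took 0.0322% (0.0315 to 0.0329), with 7661 counts. Of the 28 members that passed the filter, 20 were enriched in liver, against 11.3% of all 15570 genes tested, and 0 were enriched in brain, against 14.6% of all genes. The other 8 did not reach 4-fold with the pseudocount, among them MASP2 with 0 brain counts, and CR2 and C1QL3 stayed under the filter. The median log2 ratio of the 28 was -5.91, and that of all genes tested was 0.02. With plain library size, which moves the median of all genes to 0.98, the members' median was -4.54. Under that scaling 19 of 30 members were enriched in liver (6.02% of all genes) and 0 in brain (24.1% of all genes). In bulk tissue fewer cells of a type and less RNA per cell cannot be told apart.

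**Figure D1:**
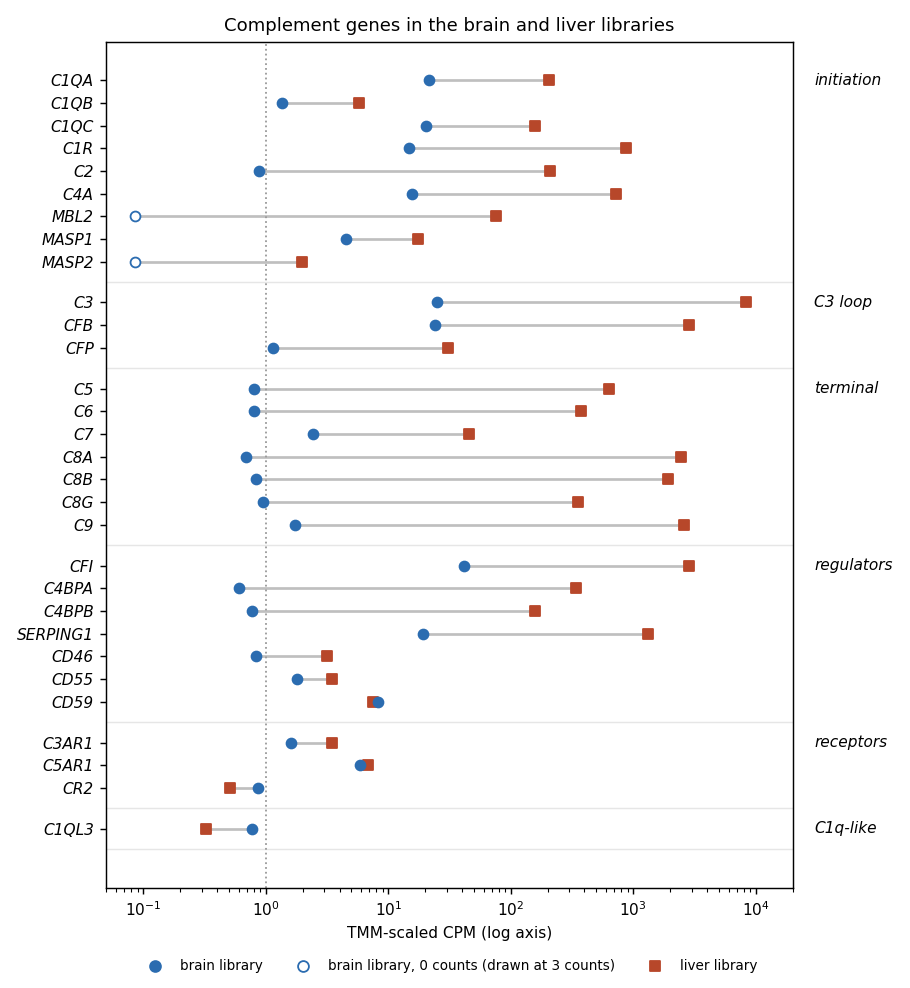
Level of each complement gene in scaled CPM (log axis) in the brain library (circles) and the liver library (squares), grouped by step, with open circles for genes with 0 brain counts drawn at 3 counts and a dotted line at 1 CPM. C8A, C8B and C9 show the widest gaps among genes with brain counts, while CD59 (8.27 and 7.45 CPM) and C5AR1 (5.90 and 6.80 CPM) nearly coincide.

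The steps of the pathway did not take the same part of the complement counts in the 2 libraries. Genes of initiation held 36.0% of the member counts in brain (34.9 to 37.1) and 8.54% in liver (8.47 to 8.61). The terminal components C5 to C9 went the other way, with 3.75% in brain (3.34 to 4.20) and 31.7% in liver (31.5 to 31.8). The C3 loop held 22.8% in brain and 42.1% in liver, and the regulators held 33.3% and 17.6%. Receptors held 3.81% of the brain member counts and 0.0406% of the liver ones. These shares are free of the scaling between libraries, and they leave out the 3 genes without a row. They also leave out 8 rows named as similar to a member. Among these are 2 rows similar to the regulator CD46, with 619 and 53 brain counts.

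**Figure D2:**
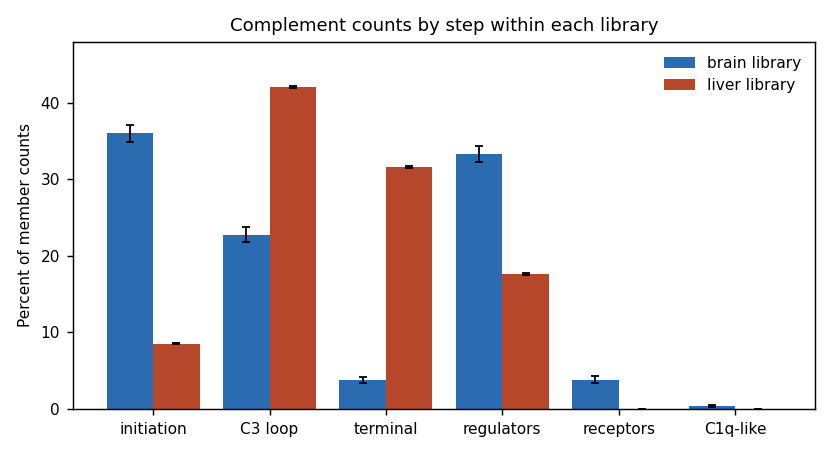
Percent of all counts of the complement genes that fell to each step, in the brain library and the liver library, with Wilson 95% intervals as error bars. Initiation and regulators take the larger part in brain, and the C3 loop and the terminal components in liver.

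Among the genes of initiation, the chains of C1q stood closer to parity than C1R, the gene of a protease that C1q activates. C1QA, which encodes the A chain, was at 21.6 CPM in brain (753 counts) and 207 CPM in liver (4476 counts), so that liver exceeded brain 9.61-fold (8.89 to 10.4; log2 ratio -3.21). C1QC, the gene of the C chain, had 711 counts in brain (20.4 CPM) and 3392 in liver (157 CPM), and liver exceeded brain 7.71-fold (7.11 to 8.37). The log2 ratio of -2.89 became -1.81 with plain library size, which is within 4-fold. C1QB, the gene of the B chain, had few counts in both libraries, 47 in brain and 124 in liver. It was 4.27-fold higher in liver (3.03 to 6.10), and with the pseudocount its log2 ratio was -1.52, within 4-fold.

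Each C1q molecule holds the A, B and C chains in equal number, and the 3 genes lie next to each other on chromosome 6. There were 1.06 C1QA counts per C1QC count in brain (0.955 to 1.18) and 1.32 in liver (1.26 to 1.38). C1QB had 0.0624 counts per C1QA count in brain (0.0455 to 0.0838) and 0.0277 in liver (0.0230 to 0.0331). A further row named as similar to subunit B lies beside it and held 2 brain counts and 1 liver count, few beside those of C1QB. Whether the C1QB row covers the whole transcript was not tested.

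C1q comes from macrophages, whose markers were present in both libraries. Of 10 genes common to macrophages, 8 had a row, none of these at 0 counts, and their summed level was 194 CPM in brain and 402 in liver. CTSS and PTPRC were enriched in liver (11.3% of all genes) and none was in brain (14.6% of all genes). With plain library size 1 of the 8 was enriched in liver (6.02% of all genes). CSF1R, the receptor for the macrophage growth factor, stood at 73.8 CPM in brain against 60.9 in liver. The ratio of C1QC counts to those of a macrophage gene needs no scaling, and it depended on the gene taken. C1QC had 0.276 counts per CSF1R count in brain and 2.58 in liver, a 9.35-fold higher ratio in liver (8.42 to 10.4), the widest of the 8. Per PTPRC count the ratio was 1.18-fold higher in liver (1.01 to 1.38), and per CTSS count it was 3.03-fold higher in brain (2.56 to 3.59). The other 5 ran from 2.58-fold to 6.73-fold higher in liver, and the median over all 8 was 3.90-fold. All 7 genes of a list for Kupffer cells were enriched in liver (11.3% of all genes), or 6 with plain library size (6.02%). Their summed levels were 12.3 CPM in brain and 1580 in liver. CLEC4G and MRC1 in that list are also known from sinusoidal endothelium, and CLEC4G had 0 brain counts. The 5 microglia markers with a row summed to 101 CPM in brain and 110 in liver. P2RY12 and TREM2 were enriched in brain (14.6% of all genes), the latter with 0 liver counts. The part of these cells in the C1q values was not tested.

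The proteases and substrates of the classical route were further apart. C1R, a protease of the C1 complex, had 516 counts in brain (14.8 CPM) and 18894 in liver (874 CPM), 59.2-fold higher in liver (54.2 to 64.7). C4A, here the single row named complement C4, had 542 counts in brain and 15517 in liver, 46.3-fold higher in liver (42.5 to 50.5). C2, which joins C4b in the classical C3 convertase, had 31 counts in brain and 4525 in liver, 236-fold higher in liver (166 to 348). C4A and C2 both lie on chromosome 7. Brain held 3.49 C4A counts per 100 liver counts (3.20 to 3.81) and 0.685 C2 counts per 100 (0.465 to 0.974), and these intervals do not meet.

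In the lectin route, MBL2, a mannose-binding lectin, had 0 counts in brain and 1639 in liver (75.8 CPM), at least 883-fold higher in liver against a floor of 3 brain counts. The protease gene MASP2 had 0 counts in brain and 43 in liver, at least 23.2-fold higher, although its log2 ratio with the pseudocount was -1.58, within the 4-fold rule. MASP1 was the lectin pathway gene with the most brain counts among the members. It had 158 counts in brain (4.52 CPM) and 379 in liver (17.5 CPM), 3.88-fold higher in liver (3.21 to 4.70) with a log2 ratio of -1.75. A row named as similar to MASP2 held 2 brain and 61 liver counts. With that row added MASP2 was at -2.46, beyond 4-fold.

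The C3 loop was high in liver throughout. C3, the central component, was at 24.8 CPM in brain (866 counts) and 8292 CPM in liver (179176 counts), 335-fold higher in liver (313 to 358). The deposited table divides C3 over 2 rows on chromosome 2, which differed. The row with a span of 58425 bp had 216 brain and 73974 liver counts, or 0.292 brain counts per 100 liver counts, and the row of 7397 bp had 650 and 105202, or 0.618 per 100. A separate row named as similar to C3 had 13 brain and 3983 liver counts and was 495-fold higher in liver.

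CFB, the gene of factor B, which forms the alternative C3 convertase, was at 24.0 CPM in brain (840 counts) and 2868 in liver (61966 counts). It was 119-fold higher in liver (111 to 128), with a log2 ratio of -6.84. There were 0.970 CFB counts per C3 count in brain (0.881 to 1.07) and 0.346 in liver (0.343 to 0.349). The brain ratio was 2.80 times the liver ratio (2.55 to 3.09), or 2.19 times with only the higher C3 row. CFP encodes properdin, which stabilises that convertase, and is known from myeloid cells. It had 40 counts in brain and 666 in liver, 26.9-fold higher in liver (19.6 to 38.0).

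All 7 terminal components were enriched in liver (11.3% of all genes), with a median log2 ratio of -8.47. C8A and C8B, neighbouring genes on chromosome 6 for the alpha and beta chains of C8, had the lowest log2 ratios of all members, -10.51 and -10.04. C8A had 24 counts in brain and 53015 in liver (2453 CPM), 3572-fold higher in liver (2400 to 5575). C8B had 29 counts in brain and 41572 in liver, 2318-fold higher (1614 to 3461). C9, which forms the ring of the pore, had 60 counts in brain and 56537 in liver, with a log2 ratio of -9.91. C5, the source of the C5a peptide, had 28 brain and 13754 liver counts, with a log2 ratio of -8.47.

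C8G and C7 are described further for their ratios. C8G, the gene of the gamma chain of C8, a lipocalin, had 33 counts in brain and 7659 in liver. It had 1.38 counts per C8A count in brain (0.788 to 2.43) against 0.144 in liver (0.141 to 0.148). That ratio was 9.52 times higher in brain (5.62 to 16.1). Per C8B count it was 1.14 in brain and 0.184 in liver. C7, which binds the forming complex to the membrane, had 85 counts in brain (2.43 CPM) and 983 in liver (45.5 CPM). Liver exceeded brain 18.7-fold (15.0 to 23.6), the smallest fold of the terminal genes. C6, which lies 2 rows from C7 on chromosome 16, had 28 counts in brain and 8100 in liver, with a log2 ratio of -7.70 near that of C8G (-7.51). The row between C6 and C7, named as similar to C6, had 1 brain count and 2726 liver counts, and with it added C6 was at -8.10.

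Abundant liver transcripts give a reference for such low brain counts. ALB, the albumin gene of hepatocytes, had 1563 counts in brain and 5966654 in liver, so that brain held 0.0262 ALB counts per 100 liver counts (0.0249 to 0.0275). The other hepatocyte markers ranged from 0.0196 per 100 for APOH to 3.40 for APOA1, and 6 of these 7 lay at or under 0.0473. Among members, 28 had an interval wholly above the ALB percentage, and MBL2 and MASP2, with 0 brain counts, had intervals that held it. C8A was nearest, at 0.0453 per 100 (0.0290 to 0.0674), followed by C8B at 0.0698 and C9 at 0.106. C3 stood at 0.483 per 100 (0.452 to 0.517), 18.5 times the ALB value. CFI, SERPING1 and C1R stood at 2.34, 2.38 and 2.73 per 100, between 89.5 and 104 times the ALB value. When liver counts at the ALB percentage were subtracted from brain, which can only move a log2 ratio toward liver, C8A went from -10.51 to -10.89, and C8G per C8A became 21.2 times higher in brain than in liver. The titles of both samples carry the same lane and barcode name. How much of the brain counts of C8A, C8B and C9 comes from brain tissue was not tested.

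**Figure D3:**
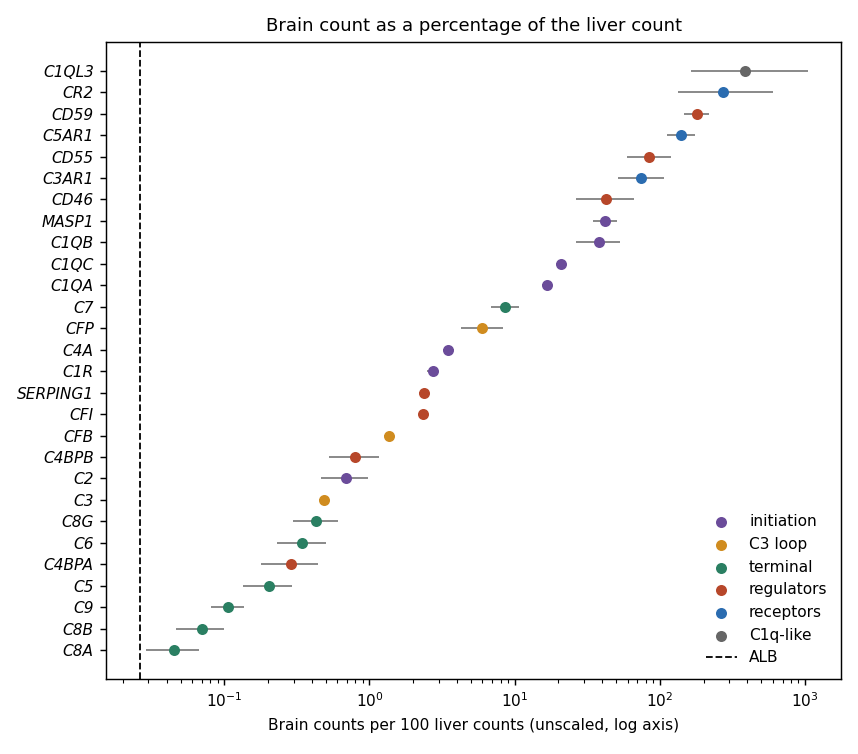
Brain counts per 100 liver counts (unscaled, log axis) for the 28 members with brain counts, coloured by step, with exact 95% intervals as lines and the ALB value as a dashed line. C8A (0.0453), C8B (0.0698) and C9 (0.106) lie nearest to the ALB value of 0.0262, while C5AR1 (140.1), CD59 (179.5), CR2 (273) and C1QL3 (386) lie above 100.

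The regulators divided into secreted and membrane-bound genes. CFI, the gene of the protease factor I, which inactivates C3b and C4b, had 1445 counts in brain (41.4 CPM), the most of any member there. In liver it had 61665 counts (2854 CPM), 69.0-fold more on the CPM scale (65.5 to 72.7). SERPING1, the inhibitor of C1r and C1s, had 677 counts in brain and 28501 in liver, 68.1-fold higher in liver (63.1 to 73.6). The intervals of these 2 folds overlapped. C4BPA and C4BPB encode the chains of C4b-binding protein, a cofactor of factor I. C4BPA had 21 counts in brain and 7304 in liver over 2 rows, and C4BPB had 27 and 3401, with log2 ratios of -7.73 and -6.48. C4BPB had 1.29 counts per C4BPA count in brain (0.700 to 2.39) and 0.466 in liver (0.447 to 0.485). With only the higher C4BPA row, the brain ratio was 5.21 times the liver ratio instead of 2.76 times.

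The membrane regulators CD46, CD55 and CD59 were all within 4-fold. CD59, which blocks the membrane attack complex, had 289 counts in brain (8.27 CPM) and 161 in liver (7.45 CPM), and its log2 ratio was 0.13, whose interval (-0.12 to 0.39) includes 0. The log2 ratio was 1.11 with plain library size. CD55, which speeds the decay of convertases, reached 1.80 CPM in brain and 3.47 CPM in liver. Its log2 ratio was -0.67, or 0.12 when scaled by plain library size. CD46, a cofactor of factor I on the cell surface, had 29 counts in brain and 68 in liver, with a log2 ratio of -1.18.

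The direction of CD46 turned with the choice of rows. The CD46 row has a span of 3711 bp. Another 2 rows on chromosome 9 are named as similar to membrane cofactor protein, the product of CD46, and carry gene numbers of their own. The first, with a span of 50612 bp, had 619 counts in brain (17.7 CPM) and 104 in liver (4.81 CPM), 3.68-fold higher in brain. The second, of 40744 bp, had 53 counts in brain and 0 in liver, at least 10.9-fold higher in brain. With both added to CD46, its log2 ratio was 1.23 rather than -1.18. Reads of such related genes may be shared between rows. Which of these rows stands for the CD46 gene was not tested.

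The similar rows, but not the CD46 row, belong to a run of 10 consecutive gene rows on chromosome 9 that starts at C4BPB. The first 3, C4BPB and the pair of C4BPA rows, were at 157, 213 and 126 CPM in liver and under 1 CPM in brain. A further row similar to C4BPA and the shorter CD55 row were under 1 CPM in both libraries. The longer CD55 row had 62 counts in brain and 72 in liver, and CR2 had 30 and 11. A row named as similar to complement receptor type 1 had 5 counts in brain and 70 in liver, and the run closes with the pair similar to membrane cofactor protein. Neighbouring genes of this family therefore differed in direction, with log2 ratios from -7.47 to 1.69 along the run.

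**Figure D4:**
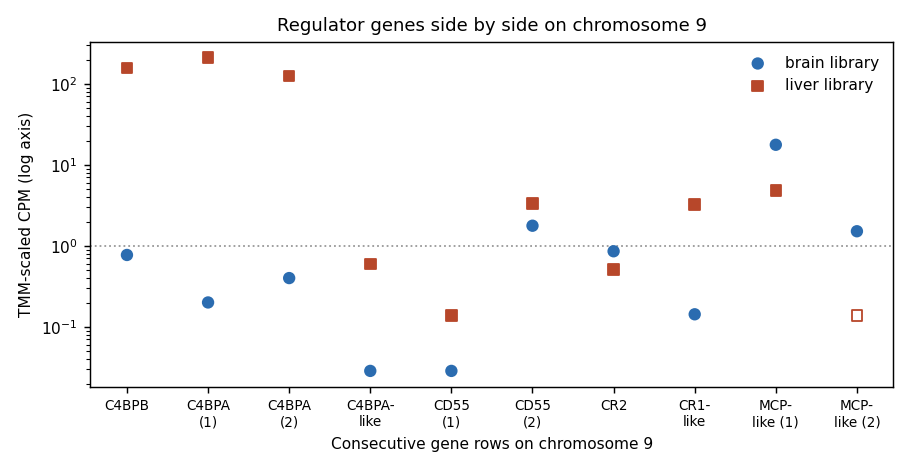
Scaled CPM (log axis) in the brain library (circles) and liver library (squares) for 10 consecutive gene rows on chromosome 9, in table order, with an open square for 0 liver counts drawn at 3 counts and a dotted line at 1 CPM. The first 3 rows are at 126 CPM or more in liver and under 1 in brain, and the last pair is higher in brain.

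Of the member receptors, C5AR1 and C3AR1 passed the filter, and neither was enriched in either tissue. C5AR1, the receptor for the C5a peptide on myeloid cells, was at 5.90 CPM in brain (206 counts) and 6.80 in liver (147 counts). Its log2 ratio was -0.18, with an interval from -0.45 to 0.09, and it turned positive under plain library size (0.78) and when the 50 highest genes were left out of the scaling (0.23). C3AR1, the receptor for C3a, had 56 counts in brain and 75 in liver, 2.17-fold higher in liver (1.51 to 3.12), and the log2 ratio of -0.78 became -0.005 when scaled by plain library size. Their ligands C5 and C3 were at -8.47 and -8.33. CR2, a receptor for C3d known from B cells and follicular dendritic cells, had 30 counts in brain and 11 in liver, 1.69-fold higher in brain with an interval that includes 1 (0.822 to 3.73). The B cell genes MS4A1, CD79A and CD79B had 5, 15 and 0 counts in brain and 8, 1 and 8 in liver.

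C1QL3 belongs to a family of synaptic proteins with a C1q-like domain and is not a complement component. It had 27 counts in brain and 7 in liver, 0.773 and 0.324 CPM, and did not pass the filter. Its fold was 2.39 toward brain (1.01 to 6.49).

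Another 51 genes related to complement were listed, of which 38 had a row and 32 passed the filter. Of these 32, 11 were enriched in liver (11.3% of all genes) and 9 in brain (14.6% of all genes), with a median log2 ratio of -0.11, against 0.02 for all genes tested. With plain library size it was 8 in liver (6.02% of all genes) and 10 in brain (24.1%), with a median of 0.57. The lectins FCN2 and MBL1 were at -7.12 and -7.50, with 8 and 3 counts in brain. VTN, CPN1 and CPB2, a further inhibitor of the membrane attack complex and carboxypeptidases that trim C3a and C5a, were at -10.05, -7.83 and -8.29. CLU, which binds the terminal complex and is also known from astrocytes, had 71594 counts in brain (2049 CPM) and 41848 in liver (1937 CPM). Its log2 ratio was 0.08, or 1.19 when scaled by plain library size.

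The membrane regulators of the further list that had a row, genes of the CSMD and SEZ6 families and SUSD4, lay on the brain side. CR1, CR1L and PTX3, listed with them, had no row. The row named as similar to complement receptor type 1, which is outside this list, was at -1.89. Of the 7 with a row, 5 were enriched in brain (14.6% of all genes), or 6 with plain library size (24.1%). None was enriched in liver (11.3% of all genes), and the median log2 ratio was 4.51. SEZ6L2 had 5679 counts in brain and 16 in liver, 219.5-fold higher in brain (135 to 384). SUSD4, an inhibitor of the classical convertase, was at 50.6 and 0.926 CPM (4.74), and CSMD1 at 34.3 and 0.555 CPM (4.51). SEZ6 had 630 counts in brain and 1 in liver, and SEZ6L had 890 and 0, at least 183-fold higher in brain. CSMD3 was at 0.72. CSMD2, picked with its value in view, had 87 counts in brain and 0 in liver, at least 17.9-fold higher in brain. Among receptors, ITGB2, the beta chain of the C3 receptors on leukocytes, was at -2.10, and CD93, a surface protein of endothelium once described as a C1q receptor, at -1.98. With plain library size they were at -1.05 and -0.90. Another pair was picked with values in view. VSIG4, a C3b receptor of tissue macrophages, was at -2.59, or -1.65 with plain library size, and ITGAM, the alpha chain of complement receptor 3, had 83 counts in brain and 20 in liver (0.81).

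**Figure D5:**
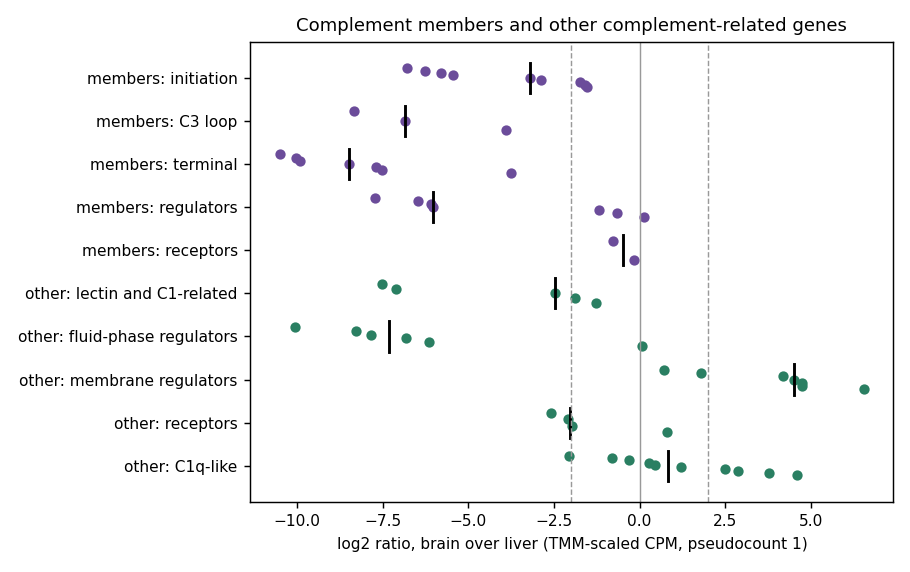
Log2 ratio of brain over liver for each tested member (upper 5 groups) and each tested gene of the further complement list (lower 5 groups), with black bars at the group medians, dashed lines at 4-fold and a solid line at 0. Terminal members centre on -8.47 and the membrane regulators of the further list on 4.51.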

How the data were processed

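RNA of brain and liver of Rongchang pigs was sequenced, with 1 library per tissue. The authors deposited raw counts per gene for both libraries in 1 table, a unit read from the whole-number values. Reads were aligned with TopHat to Sscrofa10.2, per the submitters' processing notes. The counting program and its handling of strand were not given in the sources used here, so reads of overlapping or similar genes may be shared. The span of a gene row in bp is the authors' deposited length. Chromosome names were taken from the reference genes matched to each sequence of the table.

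Members were matched by the table's symbol, or by gene number or accession to a RefSeq table of Sscrofa11.1, used for names only. Over the 21817 rows, 7002 stayed unnamed. C4A is the row labelled C4. Rows of 1 gene were summed, while 8 rows of other gene numbers, named as similar to a member, were kept apart. TMM factors came from edgeR 4.0.16 under R 4.3.3, which ran no test here. Intervals came from scipy 1.17.1: exact conditional binomial for folds and percentages, Wilson for shares, and Woolf for ratios of ratios. The calling procedure was tested on simulated counts with few genes altered, equally in both directions. That setting does not test the scaling for libraries as unlike as these. A comparison of levels per coding length was planned and not run, since protein lengths were not used here. All 30 members with a row are described. From the further list, the 12 genes with the highest mean level and those enriched in brain were taken, of which the C1q-like genes stand in the closing section and 1 gene is not reported here. Members and lists were chosen with earlier results of these data known. Ratios of C1QC to macrophage genes other than CSF1R were added after seeing the data. Other scalings, pseudocounts, filters and row choices were tried.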

Additional observations from a re-analysis of the deposited data

How the results depend on the processing

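Of the members, 20 were enriched in liver (11.3% of all genes). The count was 19 with plain library size (6.02% of all genes), which left out C1QC. It was 22 with a pseudocount of 0.1 CPM, which added C1QB and MASP2 and also raised the share of all genes to 14.9%. At the 4-fold rule, none of these scalings, pseudocounts, filters or row choices gave a member enriched in brain. The brain share of all genes ran from 7.91% with a pseudocount of 5 CPM to 24.1% with plain library size. The median log2 ratio of the members was -4.54 with plain library size, -5.21 without the 50 highest genes, -4.98 with a pseudocount of 5, -5.62 with no filter and -6.17 with a filter at 5 CPM. Relative to the median of all genes it was -5.92 with TMM and -5.52 with plain library size. Per 100 counts without mitochondrially encoded genes and the 50 highest genes, members had 0.0427 counts in brain and 3.78 in liver. With the 8 similar rows added, a setting chosen after seeing the data, their shares were 0.0351% and 1.83%. CD55 and C5AR1, both within 4-fold, changed sign between scalings, as CD46 did with the similar rows. Depth limits the brain values of C5, C6, C8A, C8B, C8G, C2, C4BPA, C4BPB, CD46, CR2 and C1QL3, which rest on 21 to 33 counts. No paired analysis was possible because each tissue has 1 library.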

Other observations

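Genes of other proteins with a C1q-like domain were also measured. Of 16 listed, 14 had a row and 10 passed the filter, of which 4 were enriched in brain (14.6% of all genes) and 1 in liver (11.3% of all genes), with a median log2 ratio of 0.83. The cerebellins are secreted organisers of synapses. CBLN2 had 448 counts in brain and 0 in liver, at least 92.4-fold higher in brain, and CBLN4 had 163 and 0, at least 33.6-fold higher. C1QL1, a synaptic relative of C1QL3, had 266 counts in brain and 4 in liver, with a log2 ratio of 2.86. C1QTNF4 had 2334 counts in brain and 39 in liver, 37.0-fold higher in brain (27.0 to 52.2). C1QTNF1, picked with its value in view, had a log2 ratio of -2.05, which plain library size brought to -1.13, within 4-fold. With a pseudocount of 5 CPM, C1QL1, CBLN2 and CBLN4 were at 1.28, 1.83 and 0.95, also within 4-fold.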
